A study of Mus musculus with 4 samples.

Results

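The BAF complex of mouse embryonic stem cells was followed through 10 of its subunit genes: Smarca4, Smarca2, Smarcc1, Smarcc2, Smarcb1, Smarcd1, Smarcd2, Smarce1, Arid1a and Actl6a. The values are those of all probe sets whose single gene symbol in the platform annotation is one of these, 25 of the 45101 probe sets on the array, for 10 of 18193 genes with such a probe set. Messenger RNA was measured on 4 Affymetrix expression arrays, 2 from embryonic stem cells labelled as Suz12 knockout (Suz12KO) and 2 from wild-type cells (WT). The labels describe equal amounts of RNA from 3 clones per genotype, combined after separate extraction, and no treatment, age, cell line or allele design is given in the sources used here. Nothing in the labels tells separate RNA pools from repeat hybridisations of 1 pool, so limma p-values cover the spread between arrays, which may be technical. In pooled bulk RNA, fewer cells of a type and less RNA per cell cannot be told apart.

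BAF is the mammalian SWI/SNF chromatin remodeller, an assembly that uses ATP to slide or evict nucleosomes and so opens promoters and enhancers. Its genetic opponent in fly development and in mouse cells is Polycomb, and Suz12 belongs to the core of the Polycomb complex that methylates histone H3. Embryonic stem cells carry a characteristic version of the complex, built around the ATPase Smarca4 with Smarcc1 and Arid1a, and with little of the paralogs Smarca2 and Smarcc2, and this version is required for self-renewal.

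The deposited intensity had a median of 202 and 191 in the Suz12KO arrays and 175 and 171 in the WT arrays. Across the tested genes, which are not independent replicates, log2 intensities had a correlation of 0.934 within Suz12KO, 0.948 within WT and 0.905 to 0.914 from one genotype to the other. Probe sets for bacterial spikes, 27 of them, had low readings throughout and were treated as not added. The highest spike reading of any array, 195, marks the intensity that background alone can give. Suz12 itself read 217 and 369 in Suz12KO cells, against 1097 and 1094 in WT cells (log2 fold change -1.89, SE 0.27, limma with Benjamini-Hochberg adjusted p = 0.00213), by its brightest probe set. Both Suz12KO readings of this probe set were above the highest spike. Over all 6 Suz12 probe sets the log2 fold changes ran from -3.07 to -0.05, and the probe set at -3.07 read 25.6 and 243 in Suz12KO arrays and 895 and 816 in WT arrays. No label says which stretch of Suz12 was deleted or whether a probe set falls inside it. All 8 embryonic stem cell markers on a list that included Pou5f1, Sox2, Nanog and Esrrb were above the spikes in every array, and all 8 were called higher in Suz12KO cells. Their summed intensity was 115187 and 118307 in Suz12KO arrays and 64999 and 64715 in WT arrays. Dppa5a alone read 55767 and 56548 in Suz12KO arrays and 29439 and 27580 in WT arrays, a large part of each sum. Of 12 fibroblast markers 8 were tested and 7 of these were called lower. The list summed to 26872 and 26632 in Suz12KO arrays and 83937 and 85711 in WT arrays. Most of each sum came from Acta2 and Vim. Acta2 alone read 6821 and 7422 in Suz12KO arrays and 33742 and 33855 in WT arrays. The tested marker that was not called, Thy1, changed by 0.41 (SE 0.46). Dcn, Lum, Postn and Pdgfrb, also on the list, read under the highest spike in all 4 arrays. BAF subunits are made by most cell types, and the part of this difference in any change below was not tested. The ratio of 3' to 5' signal for Gapdh was 0.889 and 0.871 in Suz12KO arrays and 0.807 and 0.756 in WT arrays. For beta-actin it was 1.141 and 1.137 in Suz12KO arrays and 1.146 and 1.157 in WT arrays, a smaller difference in the opposite direction.

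Among the 10 subunit genes, Actl6a rose, Arid1a fell, and the other 8 missed the threshold. The test was limma on log2(intensity + 16) with the brightest probe set standing for a gene, over 12735 genes, and a call was an adjusted p under 0.05. The fold changes are on that scale. One called higher among 10 stands beside a background of 4.48% of all tested genes called higher, and 1 called lower beside 5.50%, so the number of calls is small in both directions. The median log2 fold change was -0.05 over the 10 genes and 0.04 over all genes tested. All 10 passed the filter on low values, set at the 30th percentile of mean intensity.

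The promoters of both genes that passed the test are shown because transcripts of these genes differed between the genotypes. Each is the stretch of 250 bases before the annotated start in RefSeq's GRCm38.p6, written 5' to 3' on the gene's strand, with CpG dinucleotides in capitals.
Actl6a (chr3:32708296-32708545, plus strand): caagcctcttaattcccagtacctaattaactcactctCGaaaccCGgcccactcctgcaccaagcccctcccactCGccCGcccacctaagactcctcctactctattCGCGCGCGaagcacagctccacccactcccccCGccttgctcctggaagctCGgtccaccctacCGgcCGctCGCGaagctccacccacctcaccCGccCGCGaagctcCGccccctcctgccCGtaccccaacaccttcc
Arid1a (chr4:133756770-133757019, minus strand): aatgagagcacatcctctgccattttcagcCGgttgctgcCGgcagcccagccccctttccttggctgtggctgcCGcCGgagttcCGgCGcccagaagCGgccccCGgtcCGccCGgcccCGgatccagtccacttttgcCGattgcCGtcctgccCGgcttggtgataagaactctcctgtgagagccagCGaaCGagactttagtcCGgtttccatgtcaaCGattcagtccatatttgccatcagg
The Actl6a stretch holds 19 CpG and the Arid1a stretch 18, and 19.7% and 21.7% of the 32851 promoter windows in the same table hold at least as many. The window of a second annotated Arid1a start, which lies inside the gene, has 33. Promoter windows were found for 9 of the 10 genes, and Smarce1 was not matched. Counts ran from 4 in Smarcd2 to 40 in Smarcc2, against a median of 6 over all windows. The Smarcd2 window (chr11:106267633-106267882, minus strand) lies inside the gene, which spans 106263171 to 106272998, and not before its 5' end. The Smarca4, Smarca2 and Smarcc2 windows run in part past the 5' end of their gene. The motif GGGCGG, searched on both strands, occurred in 9 of the 10 windows of these genes and in 32.7% of all windows. It is a letter match, and the motif holds a CpG, so both counts overlap.

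**Figure D1:**
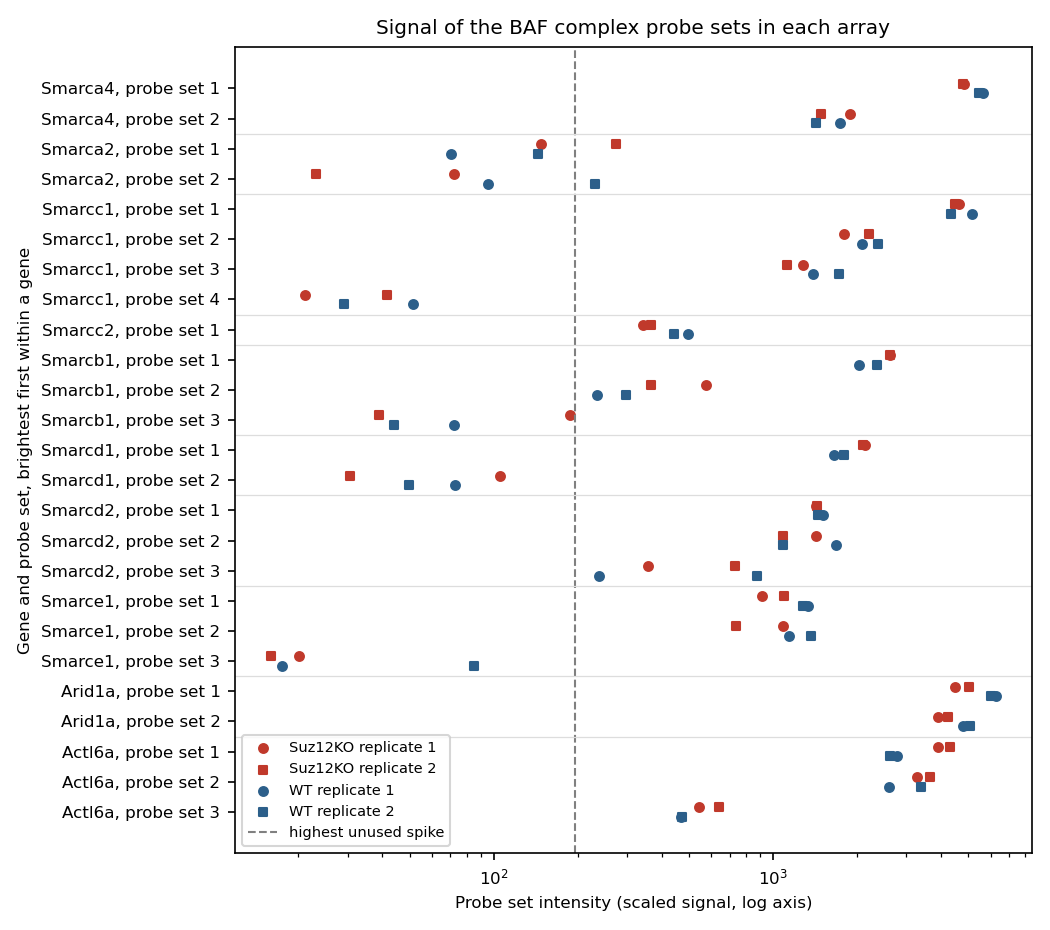
Intensity of each of the 25 probe sets (rows, grouped by gene) in the 2 Suz12KO arrays and the 2 WT arrays, on a log axis, with the highest unused spike reading (195) as a dashed line. Points of Actl6a lie to the right of WT for its brightest and dimmest probe sets, and those of Arid1a to the left for both of its probe sets; 6 probe sets do not clear the line in all arrays.

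Actl6a encodes an actin-related protein that binds the ATPase subunit and is the form of this subunit found in stem and progenitor cells. Its brightest probe set read 3885 and 4284 in Suz12KO arrays, against 2772 and 2614 in WT arrays. Both Suz12KO readings exceeded both WT readings. The difference was 0.60 on the log2 scale (SE 0.09, limma adjusted p = 0.00281), or 1.51-fold. A second probe set, of the kind whose suffix marks possible cross-hybridisation, read 3260 and 3657 in Suz12KO arrays and 2596 and 3374 in WT arrays, so its groups overlapped (log2 fold change 0.22, SE 0.13). The dimmest read 544 and 640 in Suz12KO arrays and 469 and 472 in WT arrays, with no overlap (0.32, SE 0.22). All 3 probe sets thus pointed up, but these last 2 did not pass in the fit over all 34945 probe sets with 1 gene (adjusted p = 0.480 and 0.553). The call was lost when the probe sets of each gene were averaged (0.38, limma adjusted p = 0.111). It was also lost when the variance was modelled without its dependence on level (adjusted p = 0.185). Across 15 alternatives the adjusted p ranged from 6.37e-08 to 0.185. That lower end came from using the replicate number as a block, a pairing that the labels do not give. The next lowest value was 0.00173.

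Arid1a encodes the large subunit with an AT-rich interaction domain that binds DNA and defines the canonical form of the complex. It read 4459 and 5025 in Suz12KO arrays, against 6265 and 6012 in WT arrays. Both Suz12KO readings lay under both WT readings, and the log2 fold change was -0.37 (SE 0.08, limma adjusted p = 0.0179), 22.8% lower. A second bright probe set agreed in direction, with 3904 and 4233 in Suz12KO arrays and 4777 and 5082 in WT arrays (-0.28, SE 0.08). In the fit over all probe sets neither passed (adjusted p = 0.0506 and 0.132). The Arid1a call was lost without WT replicate 1 (-0.34, adjusted p = 0.0924), WT replicate 2 (-0.40, adjusted p = 0.0527) or Suz12KO replicate 1 (-0.29, adjusted p = 0.0771). It was also lost with averaged probe sets (-0.32, limma adjusted p = 0.0570) and without the dependence on level (adjusted p = 0.291). Over 15 alternatives the adjusted p ranged from 5.68e-05, again with the replicate block, to 0.291. The next lowest value was 0.00458.

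The catalytic subunits did not pass the test. Smarca4, the ATPase of the stem cell complex, read 4834 and 4780 in Suz12KO arrays and 5618 and 5460 in WT arrays. These groups did not overlap, and the log2 fold change was -0.20 (95% interval -0.36 to -0.05, limma adjusted p = 0.107). A second Smarca4 probe set gave overlapping values, 1882 and 1486 in Suz12KO arrays and 1734 and 1420 in WT arrays (0.09, SE 0.15). After each array was centred on its median, Smarca4 passed (-0.37, adjusted p = 0.0165, within a range of 0.0165 to 0.819 over the alternatives). That centring moves the median of all tested genes to -0.13 and leaves 19.1% of calls higher, in place of 44.9%.

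Smarca2 encodes the alternative ATPase, which many differentiated cells use. Its probe sets were at the level of the unused spikes and opposed each other. One read 148 and 274 in Suz12KO arrays and 70.4 and 144 in WT arrays. The other read 72.4 and 23.1 in Suz12KO arrays and 95.6 and 230.1 in WT arrays. Each of them passed the highest spike in 1 array alone, so no direction can be given (log2 fold changes 0.89, SE 0.66, and -1.50, SE 0.80, in the fit over all probe sets). At this intensity the probe sets cannot show whether the transcript was present.

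The scaffold pair Smarcc1 and Smarcc2, which form the base on which the complex assembles, did not pass either. Smarcc1 read 4637 and 4469 in Suz12KO arrays and 5138 and 4330 in WT arrays, with overlap, and its log2 fold change was -0.05 (95% interval -0.26 to 0.16, limma adjusted p = 0.796). Without WT replicate 1 the Smarcc1 value was 0.072. Its other 2 bright probe sets gave -0.16 (SE 0.13) and -0.36 (SE 0.14). The second of these read 1283 and 1122 in Suz12KO arrays and 1390 and 1725 in WT arrays, without overlap. Its dimmest probe set was under the spikes in all arrays. Smarcc2, with 1 probe set, read 341 and 365 in Suz12KO arrays and 496 and 440 in WT arrays. Suz12KO was lower in both arrays, but the probe set is dim and the interval wide (-0.39, 95% interval -0.995 to 0.21, limma adjusted p = 0.427).

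Smarcb1 is a core subunit that contacts the nucleosome and is lost in rhabdoid tumours. It read 2622 and 2612 in Suz12KO arrays and 2027 and 2361 in WT arrays, a log2 fold change of 0.26 (SE 0.11, limma adjusted p = 0.180). A dimmer probe set with a cross-hybridisation suffix read 575 and 365 in Suz12KO arrays and 235 and 297 in WT arrays (0.76, SE 0.34). Both lay above WT without overlap, and neither passed. The dimmest Smarcb1 probe set was under the highest spike in all arrays.

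Smarcd1 and Smarcd2 are alternative subunits that connect the complex with transcription factors. Smarcd1 read 2141 and 2102 in Suz12KO arrays and 1655 and 1794 in WT arrays, with no overlap (0.30, SE 0.11, limma adjusted p = 0.122). Its second probe set was under the spikes in all arrays. Smarcd2 read 1419 and 1438 in Suz12KO arrays and 1513 and 1450 in WT arrays, close but without overlap, a log2 fold change of -0.05 (95% interval -0.32 to 0.22, limma adjusted p = 0.846), and 0.0065 under quantile normalization. Its further probe sets overlapped between genotypes, and the dimmer of them spread from 238 to 873 within WT alone.

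Smarce1 carries a high-mobility-group domain that binds DNA. It read 915 and 1098 in Suz12KO arrays and 1333 and 1282 in WT arrays (-0.38, SE 0.15, limma adjusted p = 0.158). A second probe set read 1087 and 739 in Suz12KO arrays and 1138 and 1370 in WT arrays (-0.47, SE 0.20). Both lay under WT without overlap and neither passed, and the dimmest probe set stayed under the spikes.

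**Figure D2:**
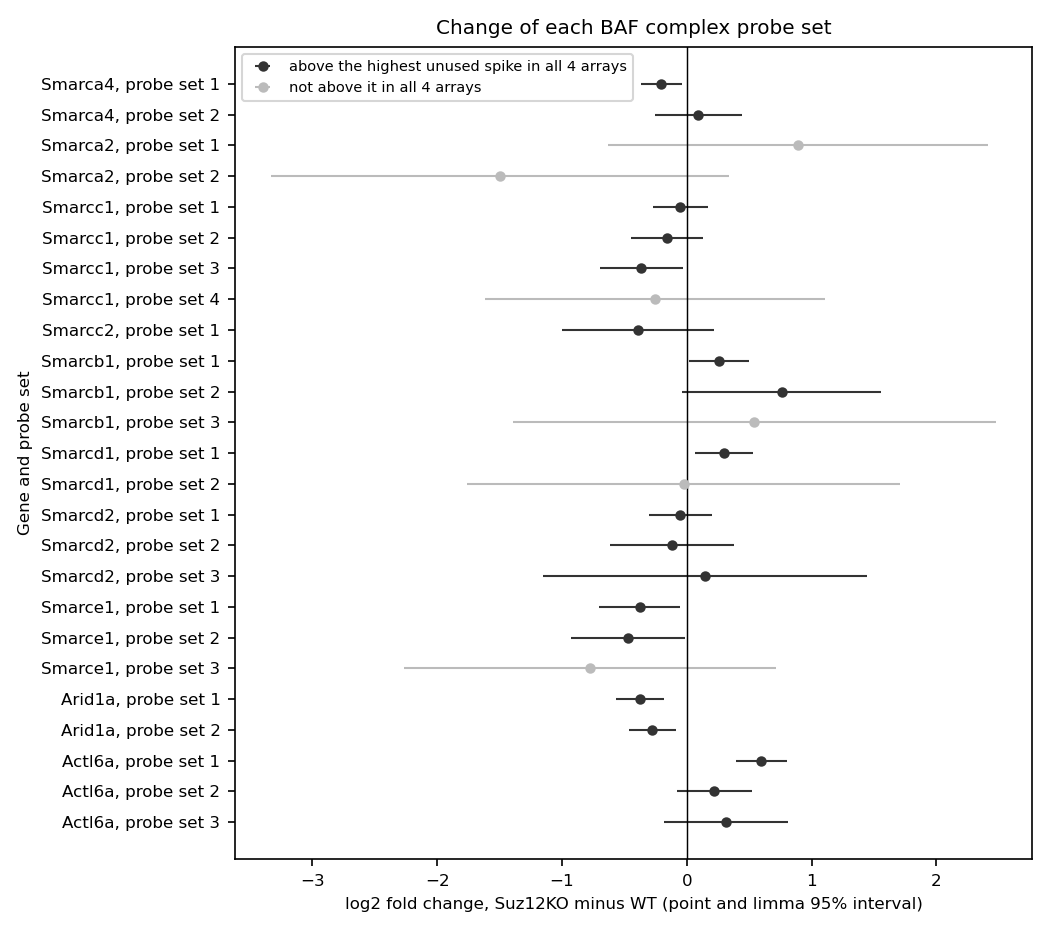
Log2 fold change (Suz12KO minus WT) of the 25 probe sets with the limma 95% interval, from the fit over all 34945 probe sets with 1 gene; grey marks the 6 probe sets that do not clear the highest spike in all 4 arrays. Intervals of the 19 bright probe sets centre between -0.47 and 0.76, and the grey ones are wider, from a Smarca2 value of -1.50 to one of 0.89.

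Across all 25 probe sets, 10 had a positive and the rest a negative log2 fold change. In the fit over all probe sets 1 of the 25 passed, the brightest of Actl6a. The background in that fit was 1.50% called higher and 2.28% called lower. Readings of the genotypes did not overlap for 15 of the 25 probe sets (6 higher and 9 lower). Over all probe sets with 1 gene, 25.2% lay higher and 20.5% lower without overlap. Of the 10 genes by their brightest probe set, 9 did not overlap (4 higher, 5 lower), against 52.9% of all tested genes (29.0% higher, 23.9% lower) and 57.4% of those in the upper part of the level range, where 9 of these genes lie. The 4 higher include Smarca2, which lies near the spikes. Its opposed probe sets also count among the 15, 1 higher and 1 lower. An unadjusted limma p under 0.05 was reached by 6 of the 10, against 23.3% of all tested genes and 29.2% of the brighter ones, and 4 of these 6 were lost on adjustment. The list was chosen with results of these data known, so these shares describe it and test nothing.

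Paralogs can replace each other in the complex, so the change of one relative to the other was compared within each array. The log2 ratio of Smarcd2 over Smarcd1 was lower by 0.35 in Suz12KO arrays (change -0.35), and that of Smarcc2 over Smarcc1 changed by -0.34. In both pairs the Suz12KO arrays did not overlap the WT arrays by the brightest probe sets. Without suffixed probe sets the groups overlapped for Smarcd2 over Smarcd1 (-0.42, exact permutation p = 0.667). With averaged probe sets the changes were -0.14 for Smarcd2 over Smarcd1 (exact permutation p = 1) and -0.18 for Smarcc2 over Smarcc1. That of Smarca2 over Smarca4 changed by 1.09, but it rests on a Smarca2 probe set near background and was -0.25 with averaged probe sets. By the brightest probe sets, the exact permutation test over 4 arrays gave p = 0.333 (two-sided) in each of the 3 pairs, and 0.333 after adjustment over them, which is the smallest value this design can give.

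Among other subunits of the BAF family, 20 of 21 listed genes were tested, 2 rose, 1 fell and 17 missed the threshold, beside the 4.48% of all tested genes called higher and 5.50% called lower. The median log2 fold change of the list was 0.04, as it was over all genes. Bicral, a subunit of the noncanonical form of the complex, read 1125 and 1174 in Suz12KO arrays and 544 and 445 in WT arrays, and rose by 1.20 on the log2 scale (SE 0.18, limma adjusted p = 0.00340). Another Bicral probe set, above the highest spike in all 4 arrays, changed by 0.72. A further one read 487 and 478 in Suz12KO arrays and 217 and 157 in WT arrays, so that 1 WT reading was under the highest spike, and the last was under it in all arrays (-0.43). The Bicral call was lost when probe sets were averaged (0.70, adjusted p = 0.331). Phf10, a subunit of the polybromo-containing form, read 2763 and 2645 in Suz12KO arrays and 1916 and 2014 in WT arrays (0.46, SE 0.10, limma adjusted p = 0.0165). A dim second Phf10 probe set opposed it (-0.69, SE 0.49). Arid2, which takes the place of Arid1a in the polybromo-containing form, read 2352 and 2051 in Suz12KO arrays and 3316 and 2729 in WT arrays (-0.45, SE 0.12, limma adjusted p = 0.0456). One further Arid2 probe set changed by -0.43 and the 2 dimmer ones by -0.04 and 0.05.

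The Phf10 call was lost on leaving out WT replicate 1 (adjusted p = 0.0865), WT replicate 2 (adjusted p = 0.0510) or Suz12KO replicate 1 (adjusted p = 0.0681), after centring (0.29, adjusted p = 0.119) and with averaged probe sets (-0.12, adjusted p = 0.761). Arid2 lost its call without WT replicate 1 (-0.31, adjusted p = 0.264) or Suz12KO replicate 2 (-0.35, adjusted p = 0.146), under quantile normalization (adjusted p = 0.0757), with no filter on level (adjusted p = 0.0698) and with averaged probe sets (-0.22, adjusted p = 0.470). The brightest members that did not pass were Actb, an actin that is also a structural subunit (0.12, adjusted p = 0.118), Ss18 (-0.08, adjusted p = 0.525) and the histone reader Dpf2 (0.12, adjusted p = 0.550). Neurons replace several subunits with close relatives, and these were dim in some or all arrays and are named here for that identity. Actl6b, the neuronal counterpart of Actl6a, read 134 and 28.3 in Suz12KO arrays and 172 and 142 in WT arrays, all under the highest spike. Dpf1 read 222 and 349 in Suz12KO arrays and 61.6 and 132 in WT arrays (1.46, SE 0.59, limma adjusted p = 0.174). Its relative Dpf3 read 528 and 67.9 in Suz12KO arrays and 469 and 87.6 in WT arrays (-0.07, SE 0.93, limma adjusted p = 0.978). Ss18l1 (0.33, adjusted p = 0.758) and Smarcd3 (0.05, adjusted p = 0.967) did not pass.

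Among remodelling ATPases and partners outside BAF, 29 of 30 listed genes were tested, 4 rose, 1 fell and 24 missed the threshold, beside the same 4.48% and 5.50% over all tested genes, and the list median was 0.11. Baz1a, a partner of the ISWI ATPase Smarca5, read 923 and 870 in Suz12KO arrays and 2540 and 2348 in WT arrays, and fell by 1.43 on the log2 scale (SE 0.12, limma adjusted p = 9.91e-05). A second Baz1a probe set changed by -1.29. The 4 that rose changed by less: Baz2a by 0.48, Smarcad1 by 0.42, Atrx by 0.37 and Ruvbl2, a helicase of the INO80 complex, by 0.36 (limma adjusted p = 0.00730 to 0.0382). After centring none of these 4 passed (0.19 to 0.32). With averaged probe sets the call ended for Baz2a (0.21, adjusted p = 0.656), Smarcad1 (0.37, adjusted p = 0.0542) and Atrx (0.37, adjusted p = 0.310). Without suffixed probe sets Baz2a changed by -0.29 (adjusted p = 0.660). Leaving out any single array ended the call of Atrx (adjusted p = 0.0875 to 0.151). Calls also ended for Baz2a on leaving out replicate 2 of WT (adjusted p = 0.125) or of Suz12KO (adjusted p = 0.0910), for Smarcad1 on leaving out replicate 1 of WT (adjusted p = 0.140) or replicate 2 of Suz12KO (adjusted p = 0.0872), and for Ruvbl2 on leaving out replicate 2 of WT (adjusted p = 0.0554). Of the brightest that did not pass, Smarca5 changed by -0.15, the helicase Hells by 0.08 and Bptf by -0.37.

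**Figure D3:**
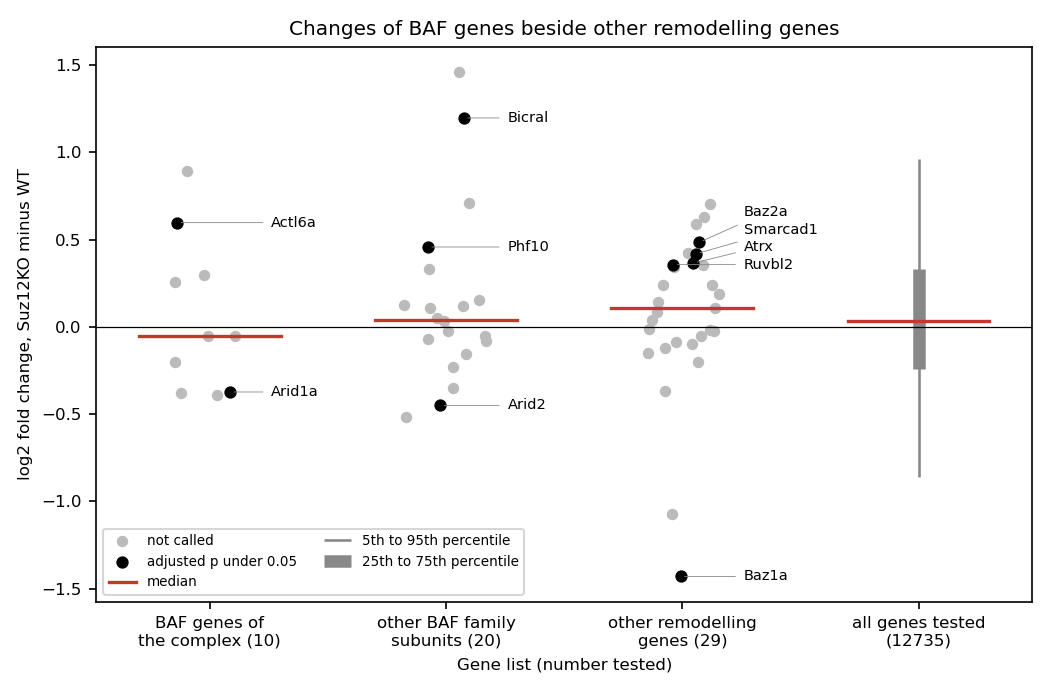
Log2 fold change (Suz12KO minus WT) of the 10 subunit genes, the 20 other BAF family genes and the 29 other remodelling genes that were tested, with list medians as red lines and, at the right, the spread of all 12735 genes. Black points passed the test; Actl6a and Arid1a lie within the 5th to 95th percentile range of all genes (-0.86 to 0.96), and Bicral and Baz1a lie outside it.

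The changes of Actl6a and Arid1a kept their direction under all 15 alternative settings, and their sizes ranged from 0.38 to 0.67 and from -0.54 to -0.29. For 5 further subunits the direction was also kept throughout the settings that gave a value, upward for Smarcb1 (0.09 to 0.52) and Smarcd1 (0.13 to 0.35) and downward for Smarca4 (-0.37 to -0.06), Smarcc2 (-0.56 to -0.31) and Smarce1 (-0.55 to -0.25). None of these 5 passed the test as reported, and Smarca4 passed under centring alone. For these 5, and for Actl6a and Arid1a, several settings could not move the estimate. They were the filters on level, suffix-free probe sets (which gave no value for Smarcb1), eBayes without trend or robust, and the replicate block. Nor could leaving out 1 array or another pseudocount turn a sign, because the genotypes did not overlap. Centring lowered all estimates alike, so it worked against the upward genes alone. Averaging could turn a sign only where probe sets differed in sign, as for Smarca4 and Smarcd1. For Arid1a, Smarcc2 and Smarce1, quantile normalization was thus the only setting that could have turned the sign. Smarcc1, Smarcd2 and Smarca2 each took both signs.

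**Figure D4:**
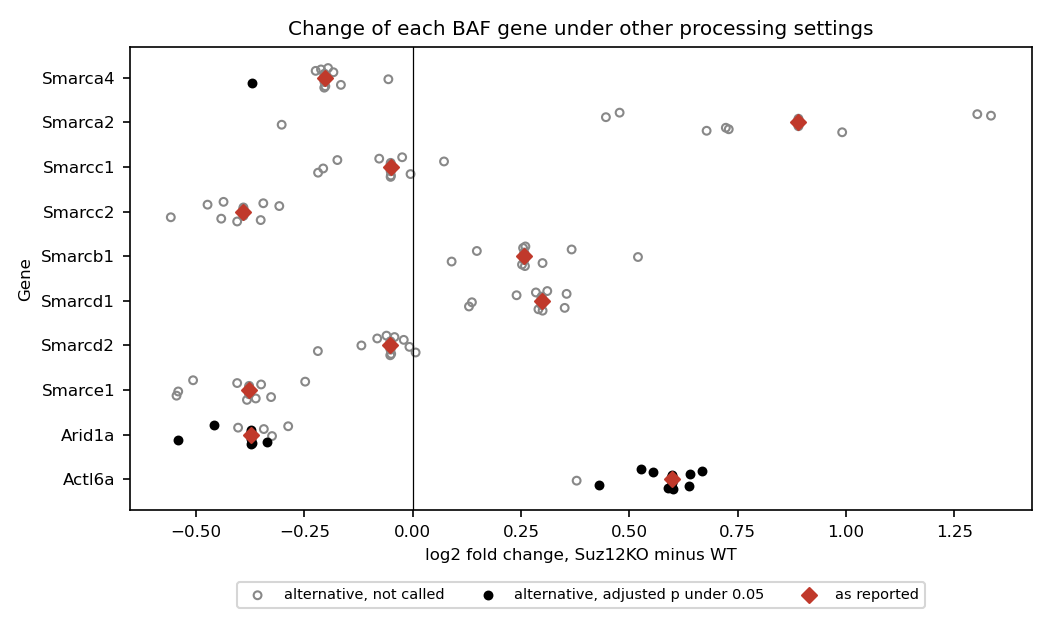
Log2 fold change (Suz12KO minus WT) of each of the 10 genes as reported (red diamond) and under up to 15 alternative settings (circles, filled where the adjusted p was under 0.05). Circles of Actl6a stay between 0.38 and 0.67 and those of Arid1a between -0.54 and -0.29, while those of Smarca2 run from -0.30 to 1.33.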

How the data were processed

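The authors deposited probe set intensity on a linear scale for 4 arrays. Per the labels' protocols, biotin-labelled targets were made from pooled RNA by the supplier's method; no source used here names the summarisation software. The 2% trimmed mean of the deposited intensity was 500.003 in each array, which fixes each array's scale, so that a shift common to most genes is invisible. No further normalization was applied. In the platform annotation 34945 probe sets list 1 gene, 932 several and 9160 none here, besides 64 controls.

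Values were taken as log2(intensity + 16). The comparison of Suz12KO with WT used limma 3.58.1 under R 4.3.3 (lmFit and trended eBayes, two-sided p-values, Benjamini-Hochberg adjusted), once with the brightest probe set per gene, leaving out genes under the 30th percentile of level, and once over every probe set with 1 gene, unfiltered. The procedure was run on simulated data whose spread was drawn from the same fitted variance model, so the run could not test that model. Subunit genes, marker lists and the other lists were chosen with earlier results of these data known. Named were all subunit genes, Suz12, called members of the other lists and the 3 brightest that did not pass. Dpf1, Dpf3, Actl6b, Ss18l1 and Smarcd3 were added afterwards. Alternatives were a pseudocount of 1 or 64, quantile normalization, median centring, other filters, averaged or suffix-free probe sets, eBayes without trend or robust, the replicate number as a block, and leaving out each array. Neural and endoderm marker lists gave 1 call in 4 tested genes (lower, Nes) and 0 calls in 4 tested genes (1 at an unadjusted p under 0.05) by limma at an adjusted p under 0.05. Plots were made in Python 3.11.15 (matplotlib 3.10.9).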

Additional observations from a re-analysis of the deposited data

How the results depend on the processing

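With 2 arrays per genotype, calls rest on the variance model: limma without the trend called 0 of 12735 genes (2332 at an unadjusted p under 0.05), and so 0 of the 10 subunit genes, 0 of the 25 probe sets and 0 genes of both other lists. Averaging a gene's probe sets gave 0 calls among the subunit genes, 0 among other BAF family subunits and 2 among remodelling genes outside BAF. Centring each array on its median gave 3 calls among the latter genes, all lower, and among the 25 probe sets it replaced the Actl6a call by Arid1a. In the fit over all probe sets a filter at the 50th percentile gave 2 calls among those of the subunits, as did the replicate block. Leaving out 1 array gave 1 to 2 calls among the 10 genes (1 without either WT array or Suz12KO replicate 1), 0 to 1 among the 25 probe sets (0 without Suz12KO replicate 2), 1 to 2 among other BAF family subunits (1 without WT replicate 1) and 2 to 4 among remodelling genes outside BAF (3 without WT replicate 1, 2 without WT replicate 2). The cause was not tested.

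Signs turned under averaging for Smarca2 (-0.30), the ratio of Smarca2 over Smarca4 (-0.25) and Phf10 (-0.12), without suffixed probe sets for Baz2a (-0.29), without WT replicate 1 for Smarcc1 (0.072, and from -0.17 to 0.072 over all left-out arrays) and under quantile normalization for Smarcd2 (0.0065), none of them past the test there. Nothing in the labels says that equal replicate numbers share a source, and deviations of same-numbered arrays from their genotype mean correlated at 0.015 across genes. With the replicate block 2 of the 10 subunit genes passed, as without it, with 4 calls among other BAF family subunits and 7 among remodelling genes outside BAF, and over all genes 2098 calls in place of 1270. Averaging gave 611 calls over all genes, and leaving out WT replicate 2 gave 798. Both Smarca2 probe sets lay near the spikes, and their signal over background allows no direction.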
